A study of Mus musculus with 4 samples.

Results

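Marginal zone-like B cells of the spleen were 571 of 4163 kept spleen cells, and of 6741 kept cells of spleen and blood together. They were chosen by transcripts in single cells. A spleen cell with at least 3 UMIs (unique molecular identifiers, counted transcripts) of Cd79a, Cd79b and Ms4a1 together and none of Cd3d or Cd3e was taken as a B cell. A B cell was marginal zone-like when it had no UMI of Bhlhe41, Zbtb32, Fcer2a or Cd93 and at least 2 UMIs of Dtx1, S1pr3, Cd1d1 and Cr2 together. The mice were B6 mice that carried the BeCon tumour and received either YKL-05-099, an inhibitor of the salt-inducible kinases (SIK), or its vehicle control. Viable CD45+ MHCI+ immune cells were sorted, tagged with 1 hashtag antibody for each mouse and tissue, and read in 1 droplet library of spleen and blood. Vehicle mice 1, 2 and 3 gave 67, 63 and 50 marginal zone-like cells, and treated mice 2, 3 and 4 gave 146, 136 and 109. All groups, vehicle included, bore the tumour, and dose, duration, sex and age are not given in the sources used here.

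Marginal zone B cells sit at the border of the splenic white pulp, where blood-borne antigen arrives first. Signalling through the receptor Notch2 is needed for their formation, and the sphingosine 1-phosphate receptors S1pr1 and S1pr3 hold them in place against the pull of the follicle. They carry high complement receptor 2 (Cr2) and CD1d and little CD23 (Fcer2a) or IgD, and they respond quickly to Toll-like receptor ligands. SIK kinases, the target of YKL-05-099, restrain transcription driven by CREB through its CRTC coactivators, which they hold in the cytoplasm.

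The library held 92064806 gene UMIs over 14792 barcodes, of which 11513 passed the filters and 6741 of these had an assigned hashtag. The ascites library shared 52 barcode sequences with it, 17 of them among the assigned cells. A small number of gated cells carried many transcripts of other cells. Of the marginal zone-like cells, 26 had at least 20 UMIs of a T cell, NK cell, myeloid or erythroid and platelet marker list, or at least 50 of a plasma cell list, with 2 to 7 such cells in each mouse. The summed myeloid level over all members of a mouse, in CPM (counts scaled to one total for every sample), was 8280 in treated mouse 3 and 728 to 2032 in the other 5 mice. The summed erythroid and platelet level of treated mouse 4 was 6600 CPM, against 131 to 822 in the others. The platelet genes Ppbp and Gp9 were at 0 in all members, while the T cell list stayed at 61.5 to 87.2 CPM against 3584 to 4675 in T cells. The main counts are given with and without these cells.

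The 4 markers of the gate lie on 4 chromosomes of mouse genome GRCm38 (mm10): Cr2 at chr1:195136811-195176716, Cd1d1 at chr3:86995834-86999441, Dtx1 at chr5:120680202-120711927 and S1pr3 at chr13:51408639-51422797. Cr2, the complement receptor, gave most of the signal and had a UMI in 93.5% of the members. Dtx1, a Notch target, had one in 71.8%, Cd1d1, which presents lipids, in 41.0%, and S1pr3, the sphingosine 1-phosphate receptor, in 19.3%. Of the members 80.4% had at least 2 of the 4 markers, 37.7% had 3 or more and 7.53% had all 4, while 15.8% passed on Cr2 alone. The median marker sum was 6 UMIs. These values chose the members and are a description.

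Each marker was also left out of the gate in turn (the plot of each marker in cells gated without it). All cells gated by the other 3 markers are members too, 500 of them for Dtx1. The follicular cells here were held to at most 1 UMI of those other markers. These shares therefore describe genes of the rule and are not independent support for the label. Among cells gated by the other 3 markers, Dtx1 was detected in 68.0% ± 6.08 (SD, n = 6 mice), against 16.5% ± 2.81 in follicular B cells gated without it and 29.0% ± 3.94 in T cells. Cd1d1 was detected in 36.7% ± 6.82, against 8.50% ± 3.07 in follicular cells and 9.79% ± 0.633 in T cells. S1pr3 was detected in 17.8% ± 3.97, against 1.90% ± 1.68 and 0.388% ± 0.949. The lowest mouse of the cells gated by the other 3 lay above the highest mouse of both other classes for these 3 genes. Cr2 separated the B cell classes less, with 87.6% ± 6.72 against 59.8% ± 6.30 in follicular cells and 7.63% ± 2.12 in T cells. Fcer2a was left out of the gate in the same way. It was detected in 32.1% ± 5.05 of cells with a sum of at least 2 and in 39.3% ± 8.79 of those with at most 1. The shares were 26.4, 29.2 and 33.3% against 28.3, 35.6 and 33.3% in vehicle mice 1, 2 and 3. In treated mice 2, 3 and 4 they were 40.7, 29.2 and 33.9% against 52.9, 44.3 and 41.7%. The ranges over mice overlap, but in no mouse was the share higher at a sum of at least 2. The median depth of these cells was 8157.5 UMIs, against 5645.5 at a sum of at most 1. Scaled to depth, Fcer2a stood at 76.1 CPM over all cells with a sum of at least 2 and at 116.7 CPM at a sum of at most 1. Its level was lower at a sum of at least 2 in every mouse. The values were 65.8 against 67.7 CPM in vehicle mouse 3 and 53.5 against 156 CPM in treated mouse 3. In the check of Dtx1 the median depth was 8416.5 UMIs in the cells gated by the other 3 markers, 5613 in the follicular cells and 6081 in T cells, so these shares do not compare cells of equal depth.

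**Figure D1:**
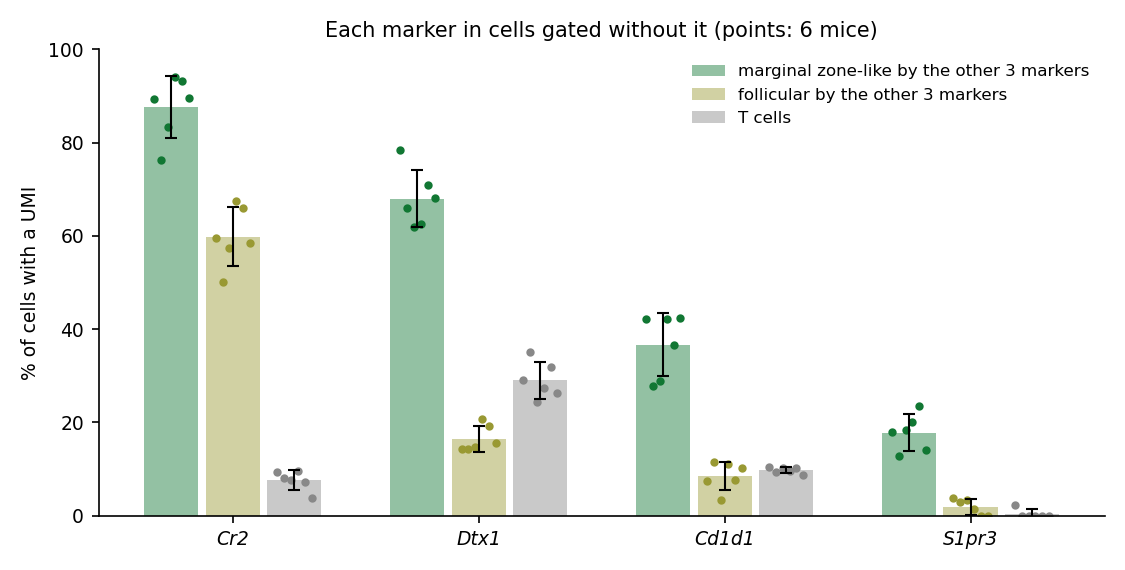
Share of cells with at least 1 UMI (y axis, percent) of each marker in marginal zone-like cells gated by the other 3 markers, in follicular B cells gated without that marker, and in T cells; bars are means, points are the 6 mice and error bars are SD. Dtx1, Cd1d1 and S1pr3 were detected most often in the cells gated by the other 3 markers, and Cr2 also in most follicular cells.

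Levels of other genes were read over steps of the marker sum, and some of them are given here. Among Fcer2a-negative B cells that met the other conditions, 227 had a marker sum of 0, 168 a sum of 1, 89 a sum of 2, 125 a sum of 3 or 4 and 357 a sum of 5 or more. Fcrl5, an Fc receptor-like protein of marginal zone B cells, stood at 34.7 CPM ± 26.2 at a sum of 0, 32.6 ± 21.4 at 1, 61.3 ± 34.1 at 2, 122 ± 60.2 at 3 or 4 and 106 ± 14.8 at 5 or more (SD, n = 6 mice). Klf2, a transcription factor of resting recirculating lymphocytes, stood at 569 ± 72.9, 647 ± 172, 434 ± 227, 372 ± 178 and 249 ± 83.2 CPM over the same steps. Ighd, the IgD heavy chain, was at 266 ± 36.6, 328 ± 75.4, 356 ± 107, 344 ± 101 and 194 ± 38.4 CPM, lowest at both ends. Cd9, a tetraspanin, was at 169 ± 65.1 CPM just outside the gate, at a sum of 1, and at 82.0 ± 30.8 just inside it, at 2. Mzb1, a chaperone of IgM assembly, was highest at a sum of 0, at 879 ± 335, 414 ± 153, 675 ± 202, 689 ± 108 and 767 ± 49.7 CPM over the steps. Ighm, the IgM heavy chain, was at 27049 ± 10725, 6934 ± 6982, 11263 ± 11070, 2408 ± 394 and 2461 ± 199 CPM. The steps thus differ in IgM transcripts as well as in marker sum. Median UMIs per cell were 5563, 6060.5, 7154, 7348 and 8913 over the 5 steps. Of the cells with a marker sum of at least 2 that met the other conditions, 287 (33.45%) were left out because they had a UMI of Fcer2a.

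Each treated mouse had a larger share of marginal zone-like cells in its spleen than each vehicle mouse. Of all kept spleen cells they were 10.6%, 10.8% and 8.35% in vehicle mice 1, 2 and 3 and 18.7%, 17.97% and 13.5% in treated mice 2, 3 and 4. The groups did not overlap, with means of 9.90% ± 1.35 and 16.7% ± 2.79 (SD, n = 3 each). The difference of 6.82 percentage points gave p = 0.1 in an exact permutation test (two-sided), which with 3 mice in each arm cannot go lower. B cells as a whole were 35.7% ± 2.43 of spleen cells in vehicle and 49.2% ± 6.63 in treated mice, and T cells 13.1% ± 0.439 and 8.99% ± 1.0045. More cells of a type in the sort and fewer of the others cannot be told apart from such shares.

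Within the B cells the difference was smaller and depended on how B cells were bounded. The share of marginal zone-like cells was 29.9% (95% exact binomial interval 24.0 to 36.4%), 28.1% (22.3 to 34.5%) and 24.9% (19.1 to 31.4%) in vehicle mice 1, 2 and 3. It was 32.9% (28.5 to 37.5%), 38.9% (33.7 to 44.2%) and 30.4% (25.6 to 35.4%) in treated mice 2, 3 and 4. The arms did not overlap, but vehicle mouse 1 and treated mouse 4 lay close together and the intervals, which cover counting error only, did overlap. The means of 27.6% ± 2.55 and 34.0% ± 4.36 differed by 6.40 points (exact permutation p = 0.1). Without the B cells rich in transcripts of other cells the arms overlapped and differed by 3.90 points (exact permutation p = 0.4), and with a marker sum of at least 1 or a stricter hashtag rule they overlapped too. Without the condition on Fcer2a the difference was 12.9 points (exact permutation p = 0.1).

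**Figure D2:**
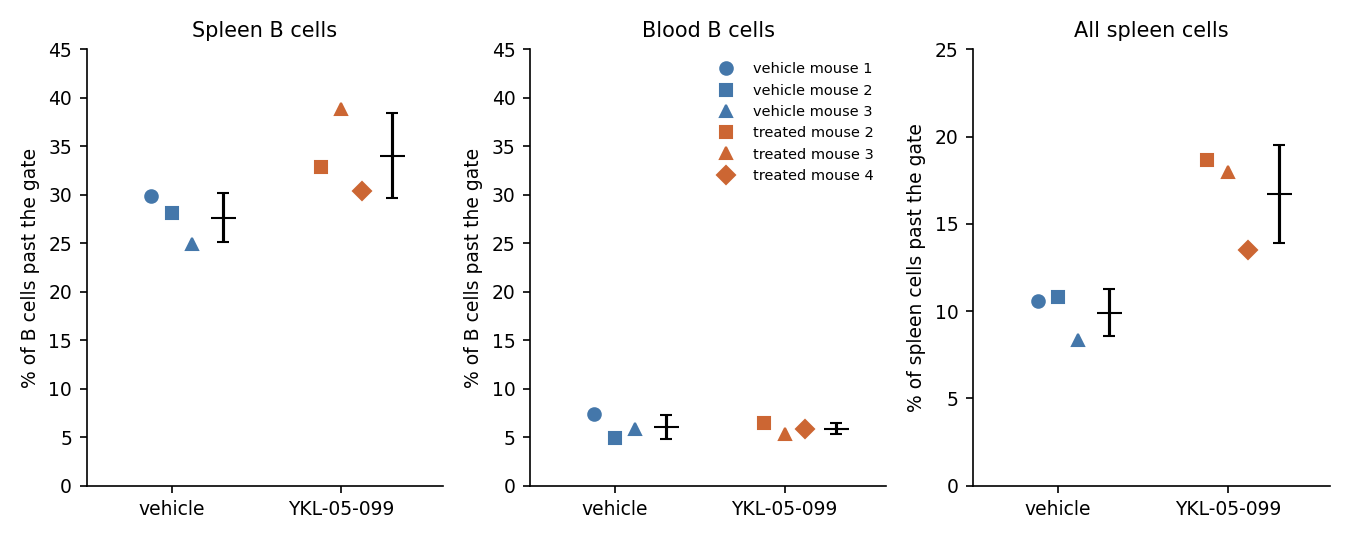
Cells past the gate as a percentage of spleen B cells, of blood B cells and of all spleen cells (y axes, percent) in each mouse, by arm; the black bars are means ± SD of 3 mice. Spleen shares lay above blood shares in all 6 mice, and treated mice lay above vehicle mice in both spleen panels but not in blood.

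Blood of the same mice served as a background for the gate. Spleen and blood labels with the same arm and number were taken to be the same animal. It passed 7.36%, 4.95% and 5.86% of blood B cells in vehicle mice 1, 2 and 3 and 6.45%, 5.37% and 5.82% in treated mice 2, 3 and 4. The arms overlapped in blood. Over all 6 mice the spleen share exceeded the blood share by 24.9 points, 30.8% ± 4.74 against 5.97% ± 0.849, and did so in 6 of 6 mice (exact sign-flip p = 0.0312, the smallest that 6 pairs can give). With every cell thinned to 1000 UMIs the shares fell to 9.09% ± 1.63 and 1.04% ± 0.221.

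Genes of the rule itself moved with treatment in the whole pool of spleen B cells, before any gate on them. Fcer2a, which encodes CD23, stood at 53.0, 52.3 and 50.9 CPM in vehicle mice and at 112, 84.0 and 93.7 CPM in treated mice 2, 3 and 4. All treated mice were above all vehicle mice, and the log2 change was 0.89 ± 0.12 (SE; adjusted p = 0.000354, edgeR quasi-likelihood test with Benjamini-Hochberg adjustment). Cd93, a marker of immature B cells, fell from a low level, 13.1 ± 2.98 CPM, to 5.37 ± 0.637 CPM (log2 change -1.28 ± 0.27, adjusted p = 0.00793). In all, 591 of 9182 genes passed in this pool, 6.44%, with 3.41% higher and 3.03% lower. Without the cells rich in transcripts of other cells the count was 415 of 8346, 4.97%, with 235 higher and 180 lower. Of these, 204 were among the 591. Cr2 differed by 0.70 ± 0.18 (adjusted p = 0.0739), Cd1d1 by 0.62 ± 0.18 (0.0555), Dtx1 by 0.36 ± 0.20 (0.373), S1pr3 by 0.42 ± 0.23 (0.345) and Bhlhe41 by -0.20 ± 0.17 (0.579), none of them past 0.05. Without the cells rich in transcripts of other cells Fcer2a changed by 0.55 ± 0.11 (adjusted p = 0.000819) and Cr2 also passed, at 0.31 ± 0.08 (adjusted p = 0.00985). Cd93 was too low there to be tested. The part of these changes in the shares above was not tested.

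The program that went with the gate was read against follicular B cells of the same spleens. Follicular cells were B cells with no UMI of Bhlhe41, Zbtb32 or Cd93, at least 1 of Fcer2a and at most 1 of the 4 markers. There were 271 of them, 26 to 74 for each mouse. Counts were summed for each mouse and class and compared in edgeR with the mouse as a block, the genes of the rule being left out. Of 5857 genes tested, 580 passed an adjusted p of 0.05, 9.90%, with 336 higher (5.74%) and 244 lower (4.17%) in marginal zone-like cells. The levels below are CPM after TMM scaling in this fit, and the classes were cut from the same cells' transcripts, so the comparison describes what goes with the rule. The Notch targets Hes1 and Hes5, marginal zone surface genes and lipopolysaccharide receptor parts were higher, while genes of recirculation, IgD and immediate early factors were lower.

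The Notch targets Hes1 and Hes5 stood apart although the receptor Notch2 did not. Hes1, a transcriptional repressor switched on by Notch, was at 201, 148 and 74.4 CPM in marginal zone-like cells of vehicle mice 1, 2 and 3 and at 161, 173 and 172 CPM in treated mice 2, 3 and 4. In follicular cells of the same mice it was at 30.7, 24.3, 10.3, 19.9, 35.4 and 64.1 CPM. The classes did not overlap, and the log2 difference was 2.31 ± 0.19 (adjusted p = 1.74e-12). Hes5, a second repressor of that family, was at 18.9 CPM ± 7.31 against 1.35 ± 2.20 (log2 difference 3.82 ± 0.69, adjusted p = 9.49e-05), higher in 6 of 6 mice. A UMI of Hes5 was found in 11.7% of vehicle and 11.5% of treated members, against 1.14% and 0.546% of follicular cells and 0.840% and 0.948% of T cells. Notch2 itself was at 48.6 CPM ± 10.6 and 47.1 ± 20.2, higher in 3 of 6 mice (log2 difference 0.16 ± 0.24, adjusted p = 0.796). Of 15 Notch2 pathway genes tested, Hes1 and Hes5 were higher and none was lower, where 5.74% of all genes were higher. The list median was 0.19. The gate selects on Dtx1, itself a Notch target, and the part of that choice in these differences was not tested. With follicular cells of any marker sum as the comparison, which takes in 558 cells, the difference in Hes1 was 1.05 (adjusted p = 0.107).

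Hes5 was also looked at in sequence, and no binding was measured. The 250 bases before its start in the RefSeq promoter table (GRCm38.p6, chr4:154960673-154960922, + strand) hold the letters GTGGGAA, the core bound by the Notch partner RBPJ, at 2 places, here in capitals, which end 219 and 76 bases before the start. The motif was searched on both strands, and 6.18% of the 27018 genes with such a window hold it at least once. The window of Dtx1, the Notch target of the gate (chr5:120711670-120711919, - strand), holds none of these letters, and Hes1 had no entry in the table. The window of Hes5 reads 5′ to 3′ as follows.
Hes5: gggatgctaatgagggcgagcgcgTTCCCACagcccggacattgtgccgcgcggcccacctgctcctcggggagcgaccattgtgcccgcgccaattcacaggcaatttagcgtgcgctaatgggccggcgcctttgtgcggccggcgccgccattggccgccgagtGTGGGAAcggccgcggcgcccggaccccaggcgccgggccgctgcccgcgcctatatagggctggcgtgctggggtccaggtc

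Of 13 tested genes listed for marginal zone B cells outside the gate, 10 were higher and none lower, with a median log2 difference of 1.42, against -0.01 over all genes. Fcrl5 was at 107 CPM ± 13.1 against 29.7 ± 8.97 (log2 difference 1.76 ± 0.20, adjusted p = 5.27e-09), higher in 6 of 6 mice. Mzb1, a chaperone of IgM assembly, was at 777 ± 89.9 against 397 ± 175 CPM (1.04 ± 0.15, adjusted p = 2.38e-05). Cd9 was at 154 ± 25.6 against 47.2 ± 33.5 CPM (1.91 ± 0.41, adjusted p = 0.0389), and it missed the threshold when treated mouse 2 or 4 or vehicle mouse 2 or 3 was left out (adjusted p 0.0733 to 0.132). It passed without the cells rich in other transcripts, at 152 ± 24.7 against 28.2 ± 11.0 CPM (2.50 ± 0.20, adjusted p = 6.62e-32). The variance behind this p was pooled almost wholly over genes, so it hardly reflects the spread of Cd9 between the 6 mice. Cd36, a scavenger receptor, was higher in 5 of 6 mice (1.29 ± 0.31, adjusted p = 0.00321). Plac8 differed by 1.42 ± 0.34 without passing (adjusted p = 0.0681). Nebl, an actin-associated protein, was at 67.4 ± 12.03 against 6.65 ± 4.36 CPM (3.44 ± 0.32, adjusted p = 3.80e-11), and Myof, a membrane repair protein, at 63.6 ± 12.3 against 6.04 ± 4.29 CPM (3.13 ± 0.31, adjusted p = 1.40e-10).

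Genes of recirculation and IgD ran the other way. Ighd was at 262, 306, 245, 275, 213 and 232 CPM in marginal zone-like cells of vehicle mice 1, 2 and 3 and treated mice 2, 3 and 4, and at 625, 691, 640, 751, 659 and 580 CPM in their follicular cells. No values overlapped, and the log2 difference was -1.37 ± 0.11 (adjusted p = 1.74e-12). Klf2 differed by -1.39 ± 0.12 (adjusted p = 3.20e-12), lower in 6 of 6 mice. Ccr7, which draws cells toward the T zone, was lower by 0.98 ± 0.19 on the log2 scale (log2 difference -0.98, adjusted p = 0.000308). Of 12 follicular genes tested, 8 were lower and none higher (median -0.84). S1pr1, the receptor that acts beside S1pr3, was higher, at 164 ± 45.8 against 105 ± 20.7 CPM (0.58 ± 0.15, adjusted p = 0.00601), in 6 of 6 mice. Cxcr5, the receptor for the follicle, differed by 0.25 ± 0.19 (adjusted p = 0.52). Of 25 tested genes of migration and retention, 2 were higher (Rgs10 and S1pr1) and 6 were lower, among them Klf2, Ccr7, Cxcr4, Rgs2 and S1pr4.

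**Figure D3:**
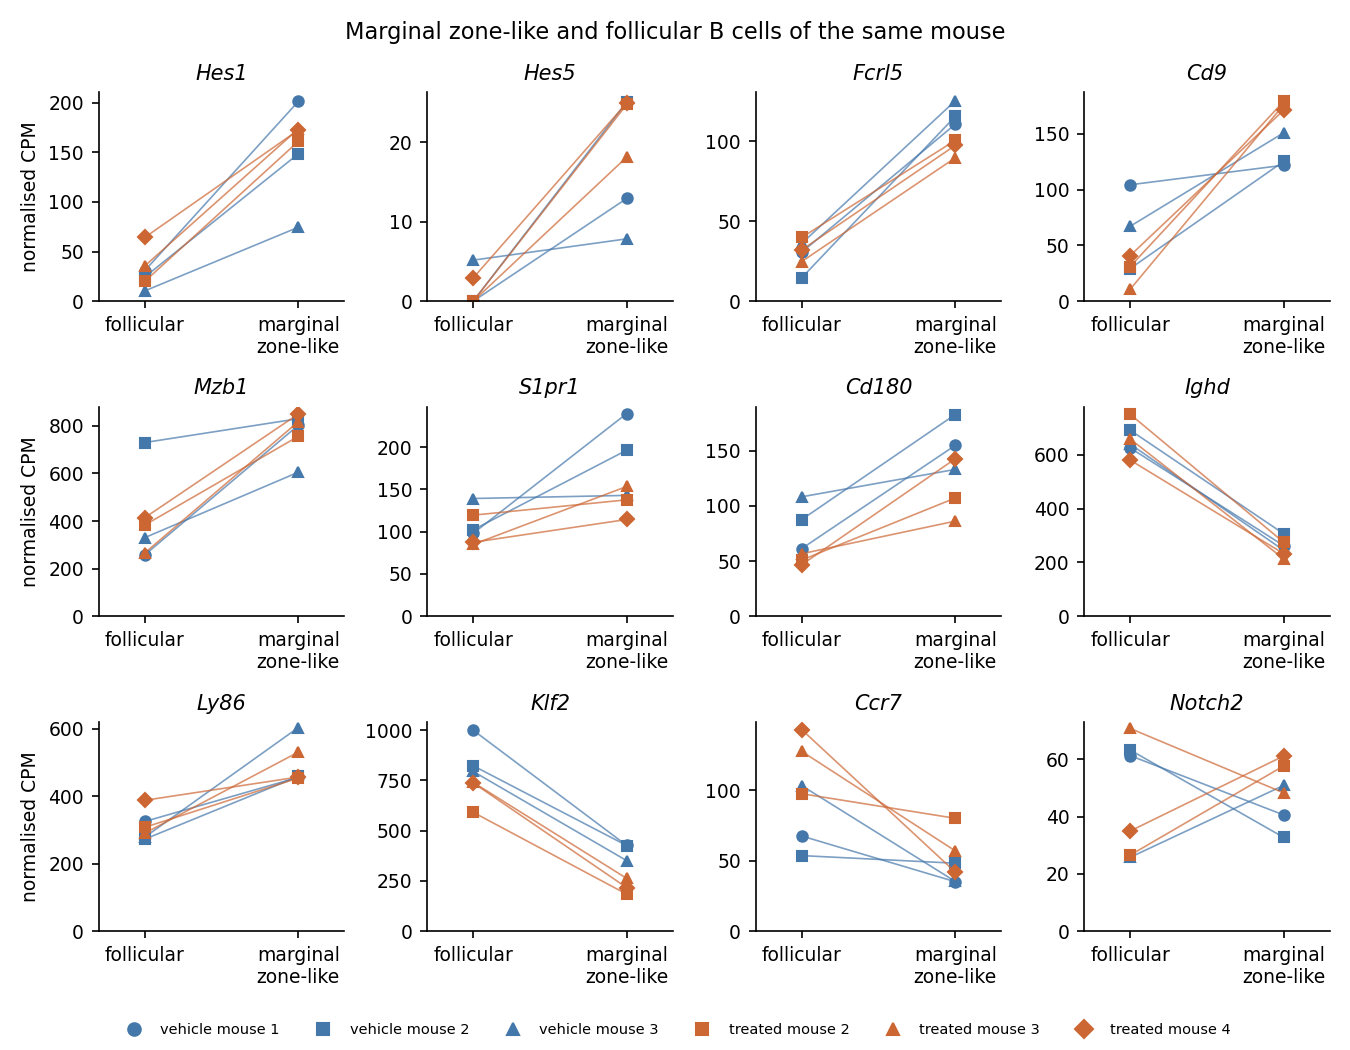
Normalised CPM (y axes, from 0) of 12 genes in follicular and marginal zone-like B cells; each line joins the 2 classes of 1 mouse, blue for vehicle and orange for treated mice. Hes1, Fcrl5 and Cd180 rose and Ighd and Klf2 fell from follicular to marginal zone-like cells in all 6 mice, while the lines of Notch2 crossed.

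Parts of the lipopolysaccharide receptors were higher. Cd180 and its partner Ly86, and Ly96, the partner of Tlr4, differed by 0.99 ± 0.16, 0.66 ± 0.12 and 1.24 ± 0.33 on the log2 scale (adjusted p = 2.15e-05, 9.26e-05 and 0.00877), each in 6 of 6 mice. With the kinase Irak1 they were the 4 of 12 Toll-like receptor genes that passed, and none was lower. Of 28 genes of B cell receptor signalling, the kinase Blk, the coreceptor part Cd81, Malt1 and Blnk were higher and Nfkbia, Tec and Btk were lower. The activation list split, with 2 of 21 higher (Myc and Cd86) and 12 lower, among them Jund (-0.92 ± 0.11), Junb (-0.83 ± 0.11) and Fos (-0.59 ± 0.12). Ighm, the IgM heavy chain, ranged from 2288 to 7625 CPM in marginal zone-like cells and up to 16710 CPM in follicular cells of vehicle mouse 2, which also had 5022 CPM of the plasma cell list, and it did not pass (0.41 ± 0.68, adjusted p = 0.833). With the cells rich in other transcripts left out, it ranged from 2169 to 2603 CPM in follicular and from 2304 to 2874 CPM in marginal zone-like cells (0.11 ± 0.08, adjusted p = 0.397).

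Marginal zone-like cells had more UMIs, by 2993 at the median (7857, 8221 and 8890.5 in vehicle mice, 8698, 8534 and 8192 in treated mice, against 4270.5 to 5840 in follicular cells). Both classes were chosen by rules on UMIs, and the part of these rules in the difference was not tested. With every cell thinned to 1000 UMIs, 145 of 849 genes passed, 119 of them also in the full counts, and Hspd1, a mitochondrial chaperone, changed sign (0.49 to -0.068). DESeq2 called 274 genes, and without treated mouse 4 edgeR called 368. When the cells rich in other transcripts were left out, 713 of 5392 genes passed, 419 higher and 294 lower, and 542 of them were among the 580. For most genes named here, that fit pooled the variance almost wholly over genes, so its p-values hardly reflect a gene's own spread between mice. There 8 of 11 tested marginal zone genes were higher, 10 of 12 follicular genes were lower, and of 6 myeloid markers 5 were lower and 1 was higher.

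Treatment changed a small set of genes inside the marginal zone-like cells. Of 5697 genes tested, 39 passed an adjusted p of 0.05, 0.685%, with 20 higher (0.351%) and 19 lower (0.334%) in treated mice, and in all 39 the arms did not overlap (15.6% of all genes tested did not overlap). Interferon-induced genes, heat shock proteins and the signalling genes Stat4 and Pde3b were higher. AP-1 factors, Klf2, the Id proteins, Irf8 and the BAFF receptor gene Tnfrsf13c were lower. Median depth per cell was 8323 ± 524 UMIs in vehicle and 8475 ± 258 in treated mice, with overlap (exact permutation p = 0.8). Levels below are CPM after TMM scaling over these 6 sums.

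**Figure D4:**
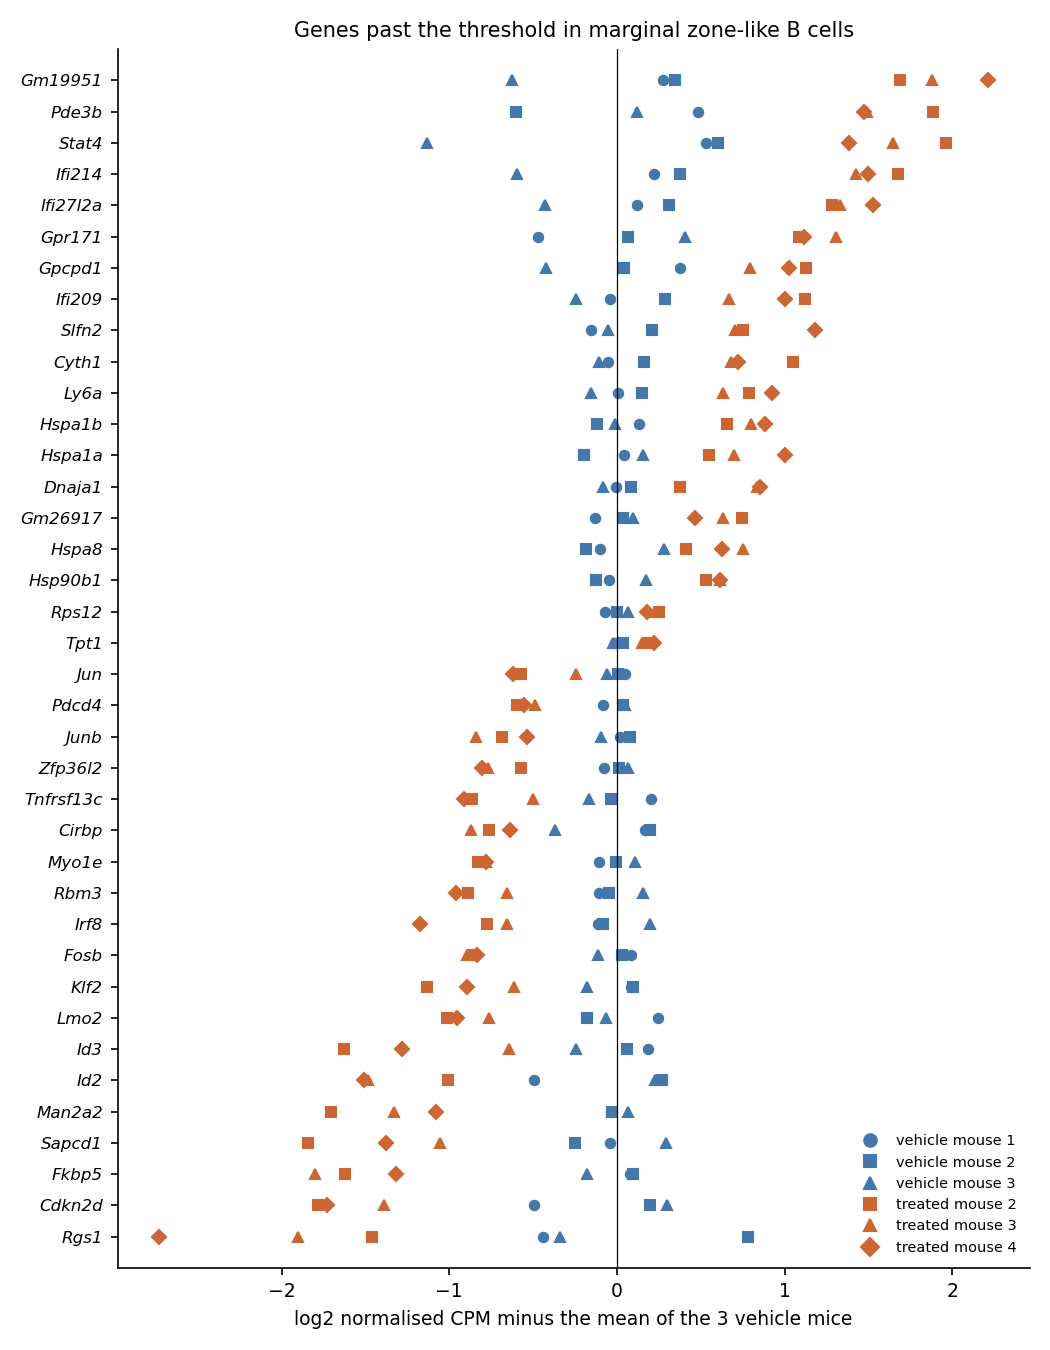
Level of 38 of the 39 genes past the threshold in marginal zone-like cells of each mouse, as log2 normalised CPM minus the mean of the 3 vehicle mice (x axis); blue marks vehicle mice and orange treated mice. Orange and blue points do not overlap in any of the 38 genes drawn.

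Several interferon-induced genes rose. Ifi27l2a was at 198, 226 and 135 CPM in vehicle mice 1, 2 and 3 and at 442, 457 and 526 CPM in treated mice 2, 3 and 4. All treated values were above all vehicle values, with a log2 change of 1.35 ± 0.15 (adjusted p = 0.000251), a call lost when the 5% of B cells with the most UMIs were left out (1.57, adjusted p = 0.124). Ifi214 and Ifi209, interferon-induced genes of the PYHIN family, rose by 1.47 ± 0.23 (adjusted p = 0.00271) and 0.92 ± 0.17 (adjusted p = 0.0125), and their copies in a tandem family may share reads. Of 11 type I interferon genes tested, 2 passed, Ifi27l2a among them, and all 11 changes were above 0, with a median of 0.78, against -0.005 over all genes tested. Without the 26 cells rich in other transcripts Xaf1 passed as well, and the median was 0.96. Ly6a, which encodes Sca-1, rose from 296 ± 31.4 to 508 ± 51.7 CPM (0.78 ± 0.12, adjusted p = 0.00271).

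Promoter windows were read for the genes that changed. The interferon-stimulated response element, searched on both strands as 2 runs of GAAA with any 2 bases between them, was in the 250 bases before a start in Ifi214 and Stat4, 2 of 12 higher genes with a window, in 0 of 13 lower genes and in 3.46% of all genes with a window. The cAMP response element TGACGTCA, the letters bound by CREB, was in none of the 25 changed genes with a window, and 3.54% of all tested genes with a window held it. No match says only that these letters are not in these windows. Capitals mark the element in Ifi214 (chr1:173535958-173536207, - strand), which ends 69 bases before the start, and in the second listed start of Stat4 (chr1:52007990-52008239, + strand), where it ends 87 bases before the start, both from the RefSeq table on GRCm38.p6.
Ifi214: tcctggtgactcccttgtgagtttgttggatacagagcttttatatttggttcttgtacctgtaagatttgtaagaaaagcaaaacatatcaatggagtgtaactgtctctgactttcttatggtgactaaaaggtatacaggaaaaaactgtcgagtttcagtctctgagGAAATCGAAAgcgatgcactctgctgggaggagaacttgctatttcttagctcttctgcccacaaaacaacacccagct
Stat4: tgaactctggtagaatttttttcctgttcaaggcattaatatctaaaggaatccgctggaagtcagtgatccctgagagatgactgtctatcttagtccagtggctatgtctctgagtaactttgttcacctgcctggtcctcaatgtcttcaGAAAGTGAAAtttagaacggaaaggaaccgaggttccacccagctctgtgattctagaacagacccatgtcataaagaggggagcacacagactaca

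Stat4, a transcription factor better known for interleukin-12 signals in T cells, rose from 29.7, 31.2 and 9.38 CPM in vehicle mice to 80.1, 64.5 and 53.6 CPM in treated mice. The log2 change was 1.49 ± 0.29 (adjusted p = 0.0141), and the call was lost without treated mouse 2 or 3 (adjusted p = 0.0805 and 0.0625). Pde3b, which breaks down cyclic AMP, rose from 38.0 ± 13.5 to 112 ± 18.6 CPM (1.56 ± 0.22, adjusted p = 0.00088). Crem, a CREB target, was at 17.5, 18.4 and 9.38 CPM against 38.9, 34.3 and 24.7 CPM, with no overlap, but missed the threshold (1.12 ± 0.31, adjusted p = 0.114). Among the alternatives it passed only with no filter on low counts (1.19, adjusted p = 0.0225). Of 19 tested genes on the list of CREB-CRTC and SIK genes, Pde3b was higher, Fosb and Junb were lower, and the median of 0.02 was near that of all genes. Sik1 differed by -0.52 ± 0.20 (adjusted p = 0.333) and Sik2 by 0.43 ± 0.53 (adjusted p = 0.863).

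Several heat shock proteins rose. Hspa1b, an inducible Hsp70, was at 671, 566 and 609 CPM in vehicle mice and at 966, 1070 and 1131 CPM in treated mice, without overlap (0.78 ± 0.10, adjusted p = 0.000348). Its near-identical copy Hspa1a rose by 0.75 ± 0.12 (adjusted p = 0.00271), and reads of the 2 genes may have been split between them in counting. Hspa8, the constitutive Hsp70, rose by 0.59 ± 0.11, the co-chaperone Dnaja1 by 0.70 ± 0.13 and Hsp90b1, the Hsp90 of the endoplasmic reticulum, by 0.58 ± 0.13 (adjusted p = 0.0153, 0.0128 and 0.0354). That made 5 of 16 tested chaperone genes higher, where 0.351% of all genes were, and 15 of the 16 changes were above 0 (median 0.46). Without the 26 cells, Hspa5, Hsp90aa1 and Hsp90ab1 passed too, which makes 8 of 16, where 48 of all 5457 genes tested were higher.

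Several AP-1 and activation genes fell. Fosb, an AP-1 subunit, was at 514, 496 and 448 CPM in vehicle mice and at 268, 261 and 273 CPM in treated mice, without overlap (-0.86 ± 0.11, adjusted p = 0.000448). Junb fell by 0.68 ± 0.12 (log2 change -0.68, adjusted p = 0.00685) and Jun by 0.47 ± 0.10 (log2 change -0.47, adjusted p = 0.0354). Fkbp5, a glucocorticoid-induced cochaperone, fell from 96.2, 97.4 and 80.6 CPM to 29.5, 26.1 and 36.5 CPM, the largest change in size on the list (-1.59 ± 0.20, adjusted p = 0.000348). Zfp36l2, which promotes mRNA decay, fell as well (-0.71 ± 0.12, adjusted p = 0.00602). These 5 were the members of the 21-gene activation list that passed, none was higher, and the list median was -0.33. Egr1 and Egr3, immediate early genes of the same list, did not pass, at 0.64 ± 0.19 and 0.63 ± 0.47 (adjusted p = 0.171 and 0.738). Without the 26 cells the count was 10 of 21 lower (median -0.22), with Jund, Fos, Dusp2, Zfp36 and Tsc22d3 in addition, where 55 of all 5457 genes tested were lower. The cold-inducible RNA-binding proteins Rbm3 and Cirbp fell together, Rbm3 from 736 ± 72.0 to 413 ± 46.8 CPM (-0.83 ± 0.11, adjusted p = 0.000577) and Cirbp by a log2 change of -0.78 ± 0.17 (adjusted p = 0.0354).

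Transcription factors and receptors of B cell position and survival were among the genes that fell. Klf2 was at 404, 406 and 336 CPM in vehicle mice and at 173, 248 and 205 CPM in treated mice, without overlap (-0.87 ± 0.14, adjusted p = 0.00378). Id2 and Id3, which block E proteins, fell by log2 changes of -1.33 ± 0.24 (adjusted p = 0.00923) and -1.13 ± 0.25 (adjusted p = 0.0354). Irf8, a factor of B cell and myeloid fate, fell from 202 ± 25.1 to 111 ± 19.9 CPM (-0.85 ± 0.15, adjusted p = 0.00923). Tnfrsf13c, the receptor for the survival factor BAFF, fell from 144 ± 18.8 to 85.3 ± 13.9 CPM (-0.75 ± 0.16, adjusted p = 0.034). Rgs1, which dampens chemokine receptor signals, fell from 15.7, 36.8 and 16.9 CPM to 7.78, 5.72 and 3.22 CPM (-1.97 ± 0.45, adjusted p = 0.0463). Of 25 tested genes of migration and retention, Klf2 and Rgs1 were lower and none was higher. S1pr1 did not pass (-0.52 ± 0.17, adjusted p = 0.221), but did without the 26 cells (-0.57 ± 0.15, adjusted p = 0.0302).

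Some genes that differed between the classes also changed with treatment, among them Klf2, Junb, Zfp36l2 and Stat4. None of the 13 tested marginal zone genes outside the gate passed, in either direction, and their median was 0.10. Hes1 was at 191, 141 and 71.3 CPM in vehicle mice and at 152, 164 and 163 CPM in treated mice, with overlap (0.24 ± 0.28, adjusted p = 0.857). Plac8 differed by 0.03 ± 0.07, Mzb1 by 0.10 ± 0.11, Cd9 by 0.39 ± 0.14 and Fcrl5 by -0.30 ± 0.15 (adjusted p = 0.941, 0.829, 0.288 and 0.521). None of the 17 Notch2 pathway genes and none of the 28 B cell receptor genes passed. These are misses of the threshold at 3 mice for each arm, and the standard errors bound what could be seen. With the 26 cells left out, S1pr1 and Zc3h12c of the marginal zone list and Nfatc1 of the receptor list passed, all lower.

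The number of genes called moved with the cells and mice taken. Without the 26 cells rich in other transcripts 103 of 5457 genes passed, 1.89%, 48 higher and 55 lower, 38 of them among the 39. Without the 5% of B cells with the most UMIs 110 passed (38 of the 39), and without vehicle mouse 3 the count was 104 (37 of the 39). Without treated mouse 2, 3 or 4 or vehicle mouse 2 it was 20 to 21. Fkbp5, Fosb, Hspa1a, Hspa1b, Klf2, Ly6a, Pde3b and Rbm3 passed in all 16 alternatives run, and Ifi214 in the 15 that gave it an adjusted p. Of the other genes named, Hspa8 and Dnaja1 were lost in 4 of 16, Tnfrsf13c in 5, Jun and Hsp90b1 in 6, and Cirbp in 7. None of the tested markers of T cells (2), NK cells (1), myeloid cells (6), erythroid cells and platelets (4) or plasma cells (6) was among the 39. With 0.685% of all genes called, a call among so few markers would be unlikely in any case, so this says little about other cells. The erythroid marker Hba-a1 passed without the 26 cells, at 52.0 ± 3.21 CPM in vehicle and 22.1 ± 5.64 CPM in treated mice (-1.24 ± 0.24, adjusted p = 0.00273), and its part in the other results was not tested.

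Follicular cells of the same mice, which share their animals with the members and had fewer cells, gave values to set beside these. In them 19 of 2526 genes passed, 0.752%, and Alox5ap, Tyrobp, Cebpb and Cybb, which myeloid cells also express and which were picked out after their values were seen, were among them. The count was 37 of 2276 (1.63%) without the cells rich in other transcripts, of which 12 were among the 19. Fkbp5 changed by -1.84 ± 0.33, Fosb by -1.14 ± 0.21 and Hspa1b by 0.90 ± 0.22, against -1.59 ± 0.20, -0.86 ± 0.11 and 0.78 ± 0.10 in marginal zone-like cells (the plot of both classes' changes). Klf2 stood at 426, 426, 351, 184, 262 and 216 CPM in marginal zone-like and at 999, 823, 794, 591, 740 and 738 CPM in follicular cells of vehicle mice 1, 2 and 3 and treated mice 2, 3 and 4. Its response differed by -0.53 ± 0.22 between the classes, which did not pass (adjusted p = 0.89). The test of the class by treatment term passed for 5 of 5857 genes, 0.0854%, of which 0.0512% were higher and 0.0341% lower in marginal zone-like cells (Hp, Alox5ap, Wfdc17, Dhrs7 and Ccnd2). The summed myeloid level of follicular cells was 72230 CPM in vehicle mouse 1, which had 26 of them, against 904 to 3623 CPM in the others, and its part in these calls was not tested. Hp, a myeloid gene, was highest in those cells, at 264 CPM. Wfdc17, another, was at 6.13 CPM there and highest in marginal zone-like cells of vehicle mouse 3, at 78.3 CPM against 1.13 to 16.6 CPM in the other 5 mice. Without the cells rich in other transcripts Hp, Alox5ap and Wfdc17 were too low to be tested, Dhrs7 and Ccnd2 did not pass, and 1 other gene did, the intermediate filament gene Vim. It was at 95.8, 87.8 and 94.0 CPM in marginal zone-like cells of vehicle mice and 29.0, 39.0 and 64.6 CPM in those of treated mice, and at 163, 90.1, 97.2, 126, 179 and 206 CPM in follicular cells (difference of the log2 changes -1.66 ± 0.32, adjusted p = 0.000997). Vim was named after its values were seen. The variance behind its p was pooled almost wholly over genes and hardly reflects its own spread between mice.

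**Figure D5:**
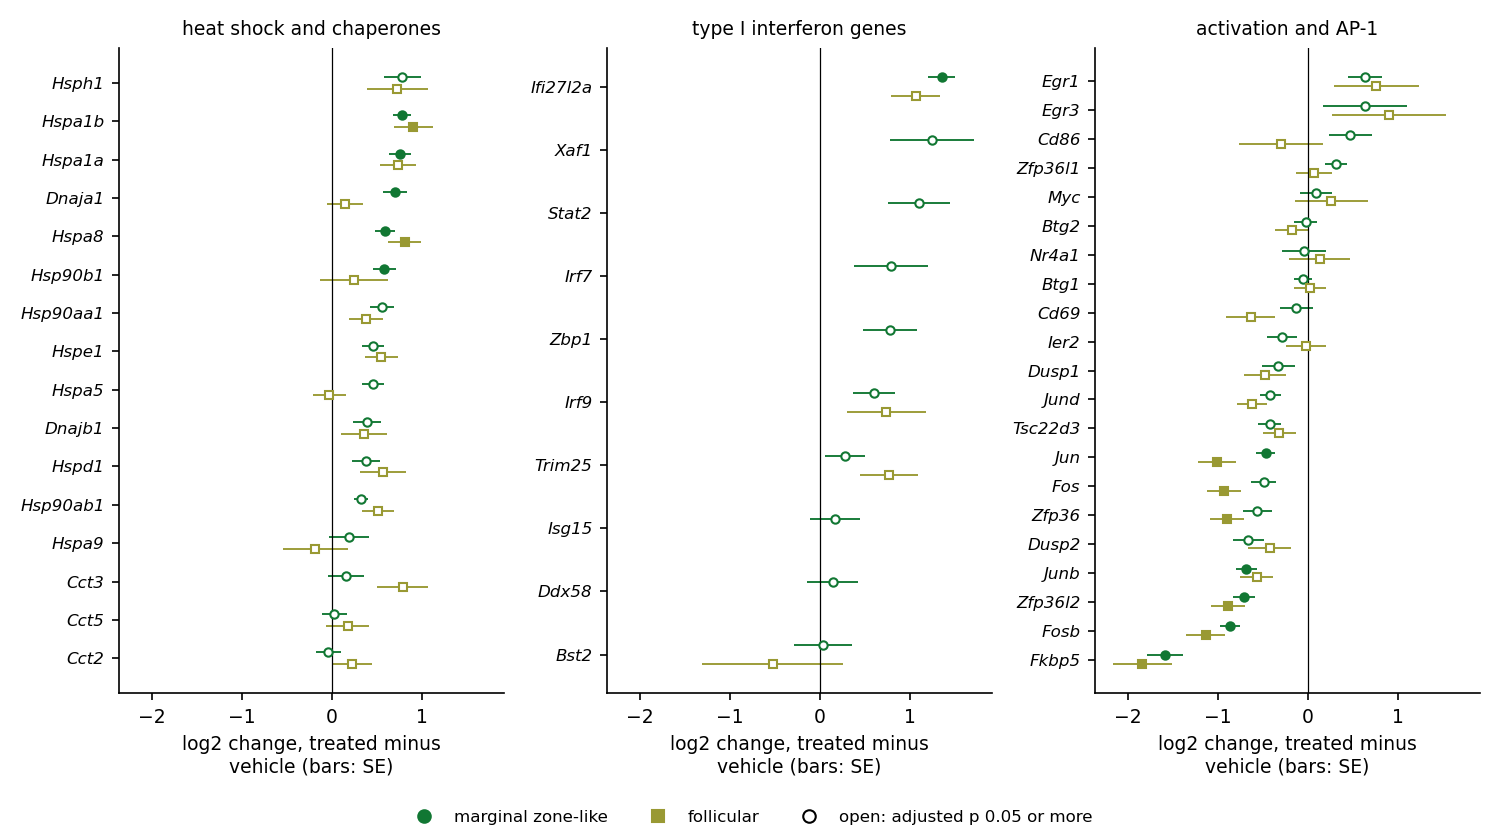
Log2 change in treated against vehicle mice (x axis; bars are SE of the edgeR fit) for genes of 3 lists in marginal zone-like (green circles) and follicular (olive squares) B cells; open symbols did not reach an adjusted p under 0.05, and a missing square was not tested in follicular cells. Most chaperone genes lay to the right of 0 and Fosb, Junb and Fkbp5 to the left in both classes.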

How the data were processed

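Single-cell counts of spleen and blood were used; the ascites library served only to count shared barcodes. The authors deposited raw UMI counts for each gene, hashtag and barcode, made with Cell Ranger 6.1.1 on mm10 per the submitters' processing notes. The hashtag notes, deposited by the authors, give each tag's mouse, arm and tissue. Replicates are mice, all in 1 library.

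Barcodes with at least 200 genes, 500 gene UMIs, at most 10% mitochondrial UMIs and a top hashtag holding at least 80% of at least 20 hashtag UMIs were kept. The hashtag rule leaves out cells with mixed tags. How many doublets remain was not measured, and no doublet caller was run. Counts were summed for each mouse and class with at least 10 cells and tested with edgeR 4.0.16 in R 4.3.3 (robust quasi-likelihood F test, TMM, filterByExpr, Benjamini-Hochberg over all genes tested, two-sided, threshold 0.05). DESeq2 1.42.0 was an alternative. The fit was tested on simulated data. Shares were compared over mice by exact permutation in scipy. The 13 genes of the gate got no test, except in all spleen B cells, where only they are named.

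The gate, gene lists and named genes were chosen with earlier results of these data known. Named genes are the 12 of smallest p in each direction without overlap, up to 4 for each list, and a set of marginal zone, CREB and SIK genes taken always. Others among the 39 and those without cells rich in other transcripts were chosen after their values were seen. Some genes are not reported here. Promoters come from RefSeq (GRCm38.p6), gene positions from GENCODE M21.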

Additional observations from a re-analysis of the deposited data

Results flagged for a closer look

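For 5 genes the response to treatment differed between marginal zone-like and follicular B cells by the class by treatment term of edgeR. The log2 change in marginal zone-like minus that in follicular cells was 4.82 for Hp (adjusted p = 4.82e-05), 3.55 for Alox5ap (0.000205), -4.65 for Wfdc17 (0.0109), 2.92 for Dhrs7 (0.0171) and -2.10 for Ccnd2 (0.0171). In follicular cells of vehicle mouse 1, Hp was at 264 CPM, and in those of the other 5 mice at 6.64 to 25.8 CPM. Ccnd2, a cyclin, was at 18.4, 34.1 and 10.3 CPM in follicular cells of vehicle mice and at 66.4, 92.05 and 122 CPM in those of treated mice, while marginal zone-like cells ranged from 43.7 to 87.3 CPM in both arms. Without the cells rich in transcripts of other cells Ccnd2 differed by -1.68 (adjusted p = 0.237) and Dhrs7 by 1.38 (adjusted p = 0.925).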

How the results depend on the processing

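Labels number mice, but vehicle and treated animals with the same number are different animals, and their deviations did not move together (r = 0.002 and -0.0162 over genes for numbers 2 and 3). With that number as a replicate block 52 genes passed in marginal zone-like cells, 22 of the 39 among them. Without the mouse block 448 genes passed between the classes in place of 580.

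With no filter on low counts 101 genes passed for treatment in marginal zone-like cells, 19 for the class by treatment term and 1164 in all B cells. Leaving out 1 mouse gave 20 to 104, 1 to 32 and 204 to 791 genes, and 368 to 556 between the classes. DESeq2 called 31 genes for treatment, 274 between classes and 0 for the class by treatment term, for which 305 genes had an unadjusted p under 0.05 in edgeR. Without cells rich in other transcripts 103 and 1 passed, without the 5% of B cells with the most UMIs 110, and with the stricter hashtag rule 3 for the class by treatment term. Thinning to 1000 UMIs left 145 calls between classes and turned Hspd1 to -0.068.

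The share differences were 14.9 points of B cells and 4.45 of spleen cells at most 5% mitochondrial UMIs, 12.9 and 11.7 without the Fcer2a condition, and 2.25 and 2.02 after thinning. Spleen exceeded blood by 23.1 to 26.0 points and marginal zone-like exceeded follicular cells by 2874 to 3097 UMIs without each mouse in turn, where 5 pairs cannot go under an exact p of 0.0625. At most 5% mitochondrial UMIs the latter was 1182.5 (exact p = 0.156), treated minus vehicle was -544 UMIs, and too few cells were left for the gene tests, which were not run.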

Other observations

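Without the 26 cells rich in transcripts of other cells, further named genes passed in treated marginal zone-like cells, all chosen after their values were seen. Among those that rose were Calr (0.68 ± 0.14, adjusted p = 0.00337), a chaperone of the endoplasmic reticulum, Hspb1 (2.56 ± 0.50, adjusted p = 0.00824), a small heat shock protein at 6.80 ± 6.87 CPM in vehicle and 41.7 ± 15.3 CPM in treated mice, and the PYHIN gene Ifi203 (0.54 ± 0.13, adjusted p = 0.0134). S100a6, a calcium-binding protein on the list of B-1 and age-associated B cell markers, fell from 92.0 ± 32.1 to 26.6 ± 6.47 CPM (log2 change -1.79 ± 0.24, adjusted p = 1.07e-05). Vpreb3, of the surrogate light chain family and on the list of transitional and germinal centre B cell markers, fell from 106 ± 8.05 to 61.4 ± 0.898 CPM (-0.78 ± 0.17, adjusted p = 0.00579). Pou2f2, a B cell transcription factor that missed the threshold in the full set of cells (-0.63 ± 0.20, adjusted p = 0.255), passed here (-0.69 ± 0.15, adjusted p = 0.00774).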
